A study of Mus musculus with 6 samples.

Results

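Matrix metalloproteases (MMPs), ADAMTS proteases and the tissue inhibitors of metalloproteases (TIMPs) were described in the palatal shelves of mouse embryos at E14.5. The 10 genes were named by symbol and found by Ensembl ID: Mmp2, Mmp11, Mmp13, Mmp14, Mmp16, Timp1, Timp2, Timp3, Adamts9 and Adamts20, of 55631 genes in the table. No value entered this rule, but earlier results of these data were known when the genes were chosen. RNA was sequenced from 3 KO and 3 control libraries. KO embryos carried p130Casfl/fl alleles with CAG-Cre, a Cre transgene under a promoter that is active in most cell types. Control embryos carried the p130Casfl/fl alleles alone and are titled WT in the labels. p130Cas is an adaptor protein found where integrins attach cells to matrix. Both groups thus carried its loxP-flanked alleles, and the Cre transgene is what set KO embryos apart. The labels do not say whether embryos or litters were pooled, and every p-value here rests on the spread between these libraries, which may be technical in part.

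Metalloproteases of these families hold a zinc ion in the catalytic site and are made as precursors, most of them inactive. Many are blocked by TIMPs, which bind their catalytic site. On mesenchymal cells the membrane-anchored MT1-MMP (from Mmp14) and TIMP2 form a complex that captures and activates pro-MMP2, so that a TIMP serves there as a cofactor as well as an inhibitor. ADAMTS9 and ADAMTS20 cut versican, a large proteoglycan of embryonic mesenchyme, and mouse mutants of these proteases are known for a cleft palate.

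Promoter sequence is shown for the 3 genes that the comparisons turn on. Mmp13 varied most between libraries, and Mmp14 and Timp1 were the 2 of 10 genes whose KO and control values did not overlap, where 9.06% of all tested genes did not. Each line gives the 250 bases before the RefSeq start on the plus strand of GRCm38.p6, at chr9:7272264-7272513 for Mmp13, chr14:54431348-54431597 for Mmp14 and chrX:20869916-20870165 for Timp1. Capitals mark matches, on either strand, to the AP-1 motif TGACTCA, to the RUNX core ACCACA, to the TATA box letters TATAAA and to the GC box letters GGGCGG.
Mmp13: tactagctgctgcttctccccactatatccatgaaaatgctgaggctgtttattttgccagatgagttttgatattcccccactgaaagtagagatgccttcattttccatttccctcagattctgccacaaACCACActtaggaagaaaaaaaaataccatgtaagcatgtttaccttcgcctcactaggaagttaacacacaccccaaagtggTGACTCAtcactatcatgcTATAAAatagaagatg
Mmp14: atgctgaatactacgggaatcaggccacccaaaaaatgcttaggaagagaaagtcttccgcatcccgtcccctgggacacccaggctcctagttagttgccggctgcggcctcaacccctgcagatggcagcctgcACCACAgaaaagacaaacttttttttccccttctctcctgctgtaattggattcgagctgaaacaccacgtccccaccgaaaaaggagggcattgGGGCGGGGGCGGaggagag
Timp1: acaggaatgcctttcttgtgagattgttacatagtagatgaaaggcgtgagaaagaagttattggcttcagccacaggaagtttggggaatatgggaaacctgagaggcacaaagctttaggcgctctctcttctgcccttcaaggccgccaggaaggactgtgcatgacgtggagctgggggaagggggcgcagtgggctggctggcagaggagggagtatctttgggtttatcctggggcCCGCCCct
The Mmp13 window held 1 RUNX match beginning 118 bases before the start, 1 AP-1 match beginning 35 bases before it and 1 TATA match beginning 16 bases before it, with no overlap between them. In the Mmp14 window a RUNX match began 114 bases before the start, and 2 adjoining GC boxes began 19 and 13 bases before it. The Timp1 window had 1 GC box, on the minus strand, 8 bases before the start. Of 32851 RefSeq promoter windows of this length, 4.46% held the AP-1 motif, 14% the RUNX core, 12.4% the TATA box and 32.7% the GC box. RefSeq windows were matched for 8 of the 10 genes. Among these, Mmp13 alone held the AP-1 and TATA letters, and its window had the lowest GC content, at 40.4% beside a median of 52.4% over all windows, while the window of Adamts20 was highest at 76.4%. The windows of Mmp11, Timp2 and Adamts20 lay within the spans of these genes given below. Those of Timp2 and Timp3 held 203 and 40 exonic bases. A match is a description of letters, not a bound site.

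Expression was given as FPKM, fragment counts scaled for gene length and library size, so levels can be compared between genes. FPKM summed to between 384979 and 424993 per library, and the read count behind each value is unknown. The p130Cas gene Bcar1 had 1.69, 1.69 and 1.31 FPKM in KO libraries and 1.80, 1.97 and 2.09 FPKM in control libraries, a weak check of the labels because reads from exons outside the loxP sites count too, and the difference did not pass (limma, adjusted p = 1.0). All 13 palatal mesenchyme markers were above 0 in all libraries, Osr2 between 44.6 and 55.2 FPKM among them. KO replicate 2 was the only library with Xist above 0 (61.0 FPKM) and the only one with Ddx3y listed at 0, the pattern of female tissue. Markers of macrophages and other leukocytes summed to 109.0 to 149.6 FPKM in KO and 77.2 to 95.4 FPKM in control libraries over 14 genes, and 0 of the 13 that were tested passed.

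The 10 genes differed widely in level, from Mmp14, at a mean of 137.4 FPKM over the 6 libraries, to Mmp13, at 1.28 FPKM. Mmp14 came first, then Mmp2 at 118.8 and Timp2 at 99.5 FPKM, and each of these was higher than the next in 6 of 6 libraries, although the ranges of Mmp14 and Mmp2 over libraries overlapped. Their levels exceeded those of 97.7%, 97.3% and 96.6% of the 14714 tested genes, which were those with a mean of at least 1 FPKM. Mmp11 (34.7 FPKM) and Timp3 (31.9 FPKM) had overlapping ranges, with Mmp11 higher in 5 of 6 libraries. Timp1 followed at 12.9 FPKM. Adamts9 (8.28 FPKM) and Mmp16 (7.86 FPKM) could not be ordered, as each was higher in 3 libraries. Adamts20 stood at 3.61 FPKM. The 3 genes of the MT1-MMP, TIMP2 and pro-MMP2 complex were thus the most abundant of the 10.

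**Figure D1:**
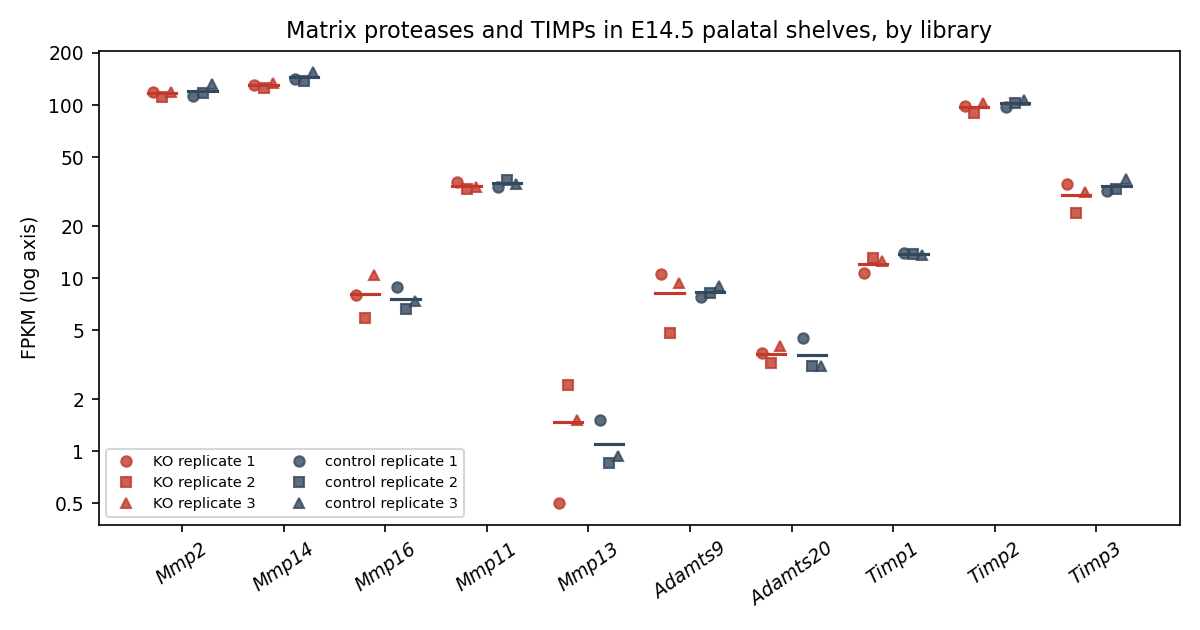
FPKM (log axis) of the 10 genes in each library, with KO libraries (red) left of control libraries (dark), 1 marker shape per replicate number and a bar at each group mean. Mmp14, Mmp2 and Timp2 lie near 100 FPKM in all libraries, and Mmp13 runs from 0.502 to 2.40 FPKM.

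The partners of MMP2 activation are described first. Mmp14 (ENSMUSG00000000957; GRCm38 chromosome 14, 54431612 to 54445364, plus strand) encodes the membrane-anchored collagenase MT1-MMP. Its values were 130.5, 125.5 and 134.8 FPKM in KO libraries (replicates 1 to 3, the order used throughout), against 141.4, 137.9 and 154.6 FPKM in control libraries. The groups did not overlap, with KO below control. Mmp14 averaged 130.2 ± 4.65 FPKM in KO and 144.6 ± 8.77 FPKM in control libraries (SD, n = 3 each), so that the KO mean was 90.1% of the control mean. The log2 fold change of FPKM + 1, KO minus control, was -0.15 ± 0.07 (SE), with a 95% interval from -0.31 to 0.01, and it did not pass (limma, adjusted p = 1.0 over all tested genes). In bulk tissue, fewer cells that make a transcript and less transcript per cell cannot be told apart. Endothelial markers were likewise lower in KO, at summed levels of 150.6, 123.1 and 151.5 FPKM in KO and 154.1, 160.6 and 174.6 FPKM in control libraries over 10 genes, all above 0 in every library. The order among KO libraries was the same as for Mmp14, and that among control libraries was not. KO and control values did not overlap for 4 of these 10 markers, where 9.06% of all tested genes did not. Endothelial markers were not the only ones that leaned lower. Log2 fold changes were below 0 for 9 of 9 tested skeletal muscle, 12 of 13 cartilage and 7 of 9 osteoblast markers. The same held for 7 of 8 pericyte and smooth muscle markers, beside 59.4% of all tested genes. Above 0 were 9 of 13 palatal mesenchyme, 7 of 10 oral epithelium and 13 of 13 macrophage and leukocyte markers. The part of any of these cell types in the Mmp14 level was not tested.

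Mmp2 (ENSMUSG00000031740; chromosome 8, 92827291 to 92853420, plus strand) encodes a gelatinase that MT1-MMP activates. Its values were 119.7, 110.7 and 119.7 FPKM in KO libraries, against 113.4, 116.6 and 132.7 FPKM in control libraries. The groups overlapped, and the log2 fold change was -0.05 ± 0.08 (SE), with an interval from -0.23 to 0.13. Without control replicate 3 it was 0.02. Mmp16 (ENSMUSG00000028226; chromosome 4, 17852893 to 18119145, plus strand), which encodes the membrane-anchored MT3-MMP, varied more. It stood at 8.03, 5.89 and 10.4 FPKM in KO libraries and at 8.87, 6.63 and 7.33 FPKM in control libraries, with the lowest and the highest value both in KO. Its log2 fold change was 0.06 ± 0.18 (SE), and its interval ran from -0.37 to 0.49. It was -0.12 without KO replicate 3 and -0.02 without control replicate 2. The ratio of Mmp14 to Mmp2 within a library was 1.09, 1.13 and 1.13 in KO and 1.25, 1.18 and 1.16 in control libraries, and the groups did not overlap. It was the only such case among 10 ratios between these genes, which were chosen after the values were seen, and no test was made.

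Over the 6 libraries, the secreted enzyme Mmp11 had the smallest ratio of highest to lowest FPKM of the 10 genes and Mmp13 the largest. Mmp11 (ENSMUSG00000000901; chromosome 10, 75923222 to 75936496, minus strand) encodes stromelysin-3, which furin activates inside the cell. It had 36.0, 32.6 and 33.4 FPKM in KO libraries and 33.6, 37.1 and 35.1 FPKM in control libraries, a range of 1.14 times over all 6. Its log2 fold change was -0.05 ± 0.07 (SE), with an interval from -0.21 to 0.10. With 1 library left out it ranged from -0.09, without KO replicate 1, to -0.02, without control replicate 2. Without KO replicate 2 it was also -0.02, and without control replicate 1 it was -0.09. Mmp11 shares 155 exonic bases with Chchd10 on the opposite strand, which stood between 2.24 and 3.97 FPKM, and the strand setting of the counting is not given in the sources used here.

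Mmp13 (ENSMUSG00000050578; chromosome 9, 7272514 to 7283331, plus strand) encodes collagenase-3, known from osteoblasts and hypertrophic chondrocytes. Its values were 0.502, 2.40 and 1.51 FPKM in KO libraries, against 1.51, 0.850 and 0.934 FPKM in control libraries, so that KO libraries held both the lowest and the highest value, 4.77 times apart. The log2 fold change was 0.17 ± 0.28 (SE), with an interval from -0.49 to 0.83, and turned to -0.10 without KO replicate 2. Osteoblast markers, of which 0 of 11 were at 0 throughout, summed to 328.3, 566.3 and 565.1 FPKM in KO and to 720.2, 462.8 and 443.4 FPKM in control libraries. Cartilage markers, of which 0 of 13 were at 0 throughout, summed to 756.7, 168.8 and 147.7 FPKM in KO and to 345.5, 302.2 and 642.1 FPKM in control libraries. Mmp13 was lowest in KO replicate 1, the library with the least osteoblast and the most cartilage signal, and the part of either in its level was not tested.

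Neither of the versican-cutting proteases passed in limma (adjusted p = 1.0 for both). Adamts9 (ENSMUSG00000030022; chromosome 6, 92772699 to 92943492, minus strand) stood at 10.5, 4.8 and 9.40 FPKM in KO libraries, against 7.74, 8.22 and 9.04 FPKM in control libraries. KO replicate 2 was lowest of all and KO replicates 1 and 3 were higher than all controls. The log2 fold change was -0.07 ± 0.24 (SE), with an interval from -0.62 to 0.47, and it was 0.23 without KO replicate 2, where it did not pass either (limma, adjusted p = 0.685). Of the genes that share exonic bases with Adamts9, A730049H05Rik and Gm15737 were listed at 0 in all libraries. Adamts20 (ENSMUSG00000022449; chromosome 15, 94270163 to 94465418, minus strand) stood at 3.68, 3.25 and 4.03 FPKM in KO libraries and at 4.52, 3.09 and 3.12 FPKM in control libraries. The ranges overlapped, the highest value was in control replicate 1, and the log2 fold change was 0.04 ± 0.14 (SE) with an interval from -0.29 to 0.36. It lay between -0.04 and -0.02 without KO replicate 3, control replicate 2 or control replicate 3. Their substrate Vcan, named after its values were seen, had 65.1, 46.8 and 67.4 FPKM in KO libraries and 70.5, 53.4 and 58.1 FPKM in control libraries, a log2 fold change of -0.03 ± 0.15 (SE).

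The 3 inhibitors had log2 fold changes below 0, and none passed in limma (adjusted p = 1.0 for each). Timp1 (ENSMUSG00000001131; chromosome X, 20870166 to 20874735, plus strand) encodes a soluble inhibitor of secreted MMPs. It stood at 10.7, 13.0 and 12.5 FPKM in KO libraries, against 13.9, 13.8 and 13.6 FPKM in control libraries. The groups did not overlap, and the SD was 1.21 FPKM among KO libraries and 0.137 FPKM among control libraries. Timp1 had the smallest unadjusted p of the 10 genes, at a log2 fold change of -0.18 ± 0.08 (SE), with an interval from -0.37 to 0.01. Without KO replicate 1 the fold change was -0.10. The gene lies within the span of Syn1 on the opposite strand and shares 0 exonic bases with it.

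Timp2 (ENSMUSG00000017466; chromosome 11, 118301069 to 118355740, minus strand), the cofactor of MT1-MMP, had 98.1, 89.5 and 103.1 FPKM in KO libraries, against 97.2, 102.4 and 107.0 FPKM in control libraries. The groups overlapped, with a log2 fold change of -0.08 ± 0.07 (SE) and an interval from -0.25 to 0.10. It was -0.02 without KO replicate 2, -0.04 without control replicate 3 and -0.12 without KO replicate 3. Timp3 (ENSMUSG00000020044; chromosome 10, 86300372 to 86349506, plus strand) encodes the inhibitor that stays bound to the matrix and also blocks ADAMTS proteases. It stood at 34.8, 23.7 and 31.6 FPKM in KO libraries and at 31.7, 32.6 and 37.3 FPKM in control libraries. KO replicate 2 was the lowest library, and the log2 fold change of -0.18 ± 0.14 (SE; interval from -0.50 to 0.14) was -0.03 without it. It was -0.11 without control replicate 3 and -0.29 without KO replicate 1. Timp3 shares 1733 exonic bases with Syn3 on the opposite strand, which stood between 0.682 and 1.01 FPKM. Summed FPKM of the 3 TIMPs was 143.6, 126.3 and 147.2 in KO and 142.7, 148.7 and 157.9 in control libraries, and that of the 5 MMPs was 294.7, 277.0 and 299.9 in KO and 298.8, 299.1 and 330.6 in control libraries.

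**Figure D2:**
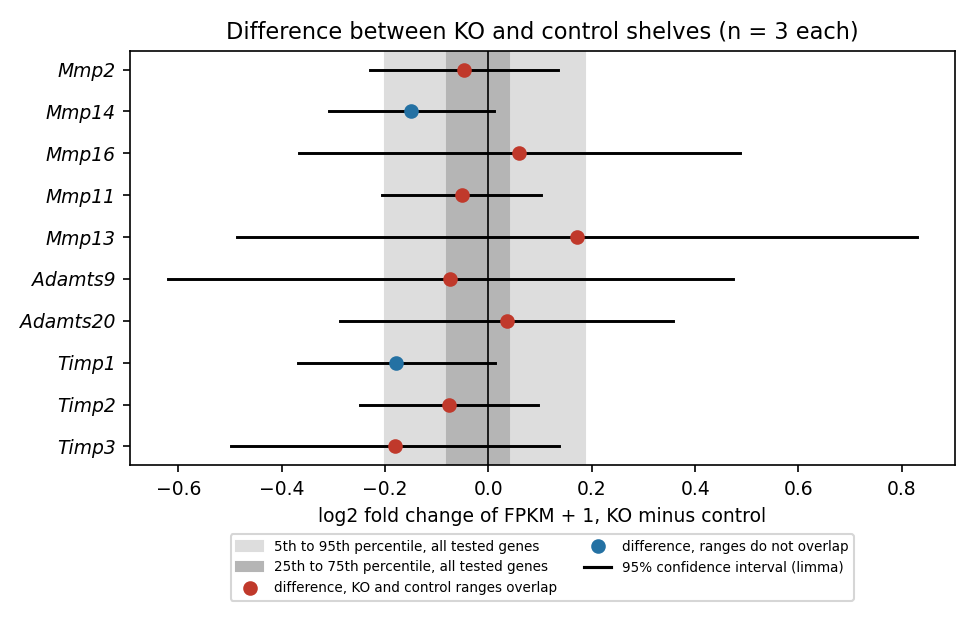
Log2 fold change of FPKM + 1, KO minus control, of the 10 genes with its 95% confidence interval, over grey bands that hold the middle of all 14714 tested genes. All 10 intervals include 0, and the intervals of Mmp14 and Timp1, whose groups did not overlap, end at 0.01.

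Across the set, 0 of 10 genes were called higher or lower in limma at an adjusted p under 0.05, where 0.333% of all tested genes were called, 0.326% higher and 0.0068% lower. At an unadjusted p under 0.05 there were 0 of 10, where 4.01% of all tested genes were under it. The groups did not overlap for 2 of 10, both lower in KO. Of all tested genes 9.06% did not overlap, 5.79% lower and 3.27% higher in KO. With so few genes, these counts do not set the 10 apart from the rest. The log2 fold changes lay between -0.18 and 0.17, with 7 below 0 and a median of -0.06, beside 59.4% below 0 and a median of -0.02 over all tested genes. The median of the 10 was -0.02 without KO replicate 2 and -0.12 without KO replicate 3, and 9 were below 0 without KO replicate 3 or control replicate 2. All 10 stayed under a difference of 1.5 times on the log2(FPKM + 1) scale, as did 98.9% of all tested genes. The 95% interval was narrowest for Mmp11, from -0.21 to 0.10, and widest for Mmp13, from -0.49 to 0.83. These intervals are not adjusted for the number of genes tested, whereas the calls are. The cathepsin gene Ctss, described below, was not called although it differed by 0.72 with an SE of 0.15. The SE was nearly as large for Timp3 and Adamts20 (0.14 each) and larger for Mmp13, Adamts9 and Mmp16. A moderate change of any of these 5 genes could thus be missed with these libraries. The size of change that would pass was not tested for any of the 10.

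Libraries of the same group also differed. KO replicate 2 had the lowest value for 7 of the 10 genes, Mmp2, Mmp11, Mmp14, Mmp16, Timp2, Timp3 and Adamts9, where 28.4% of all tested genes were lowest there. KO replicate 2 was also the highest library for Mmp13. Control replicate 3 was highest for 4 genes, Mmp2, Mmp14, Timp2 and Timp3, where 17.7% of all tested genes were highest there. The endothelial markers given above were likewise lowest in KO replicate 2 and highest in control replicate 3. Other lists shared a part of this pattern. Palatal mesenchyme markers summed lowest in KO replicate 2, at 665.1 FPKM, but highest in KO replicate 3, at 808.8 FPKM. Pericyte and smooth muscle markers summed highest in control replicate 3, at 157.5 FPKM, but lowest in control replicate 1, at 135.8 FPKM. Oral epithelium markers were highest in KO replicate 2, at 438.5, 598.4 and 344.1 FPKM in KO and 435.6, 512.9 and 389.0 FPKM in control libraries over 10 genes. All of these epithelial markers were above 0 in every library, and the part of any of these lists in the protease levels was not tested. Over the 6 libraries, Timp3 and Adamts9 were the most alike pair of the 10 genes (Pearson r of log2(FPKM + 1) = 0.91), and Mmp11 and Mmp13 the least alike (r = -0.89). Both values rest on 6 libraries, of which KO replicate 2 stood at an extreme for Timp3, Adamts9, Mmp11 and Mmp13, and are given as a description.

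**Figure D3:**
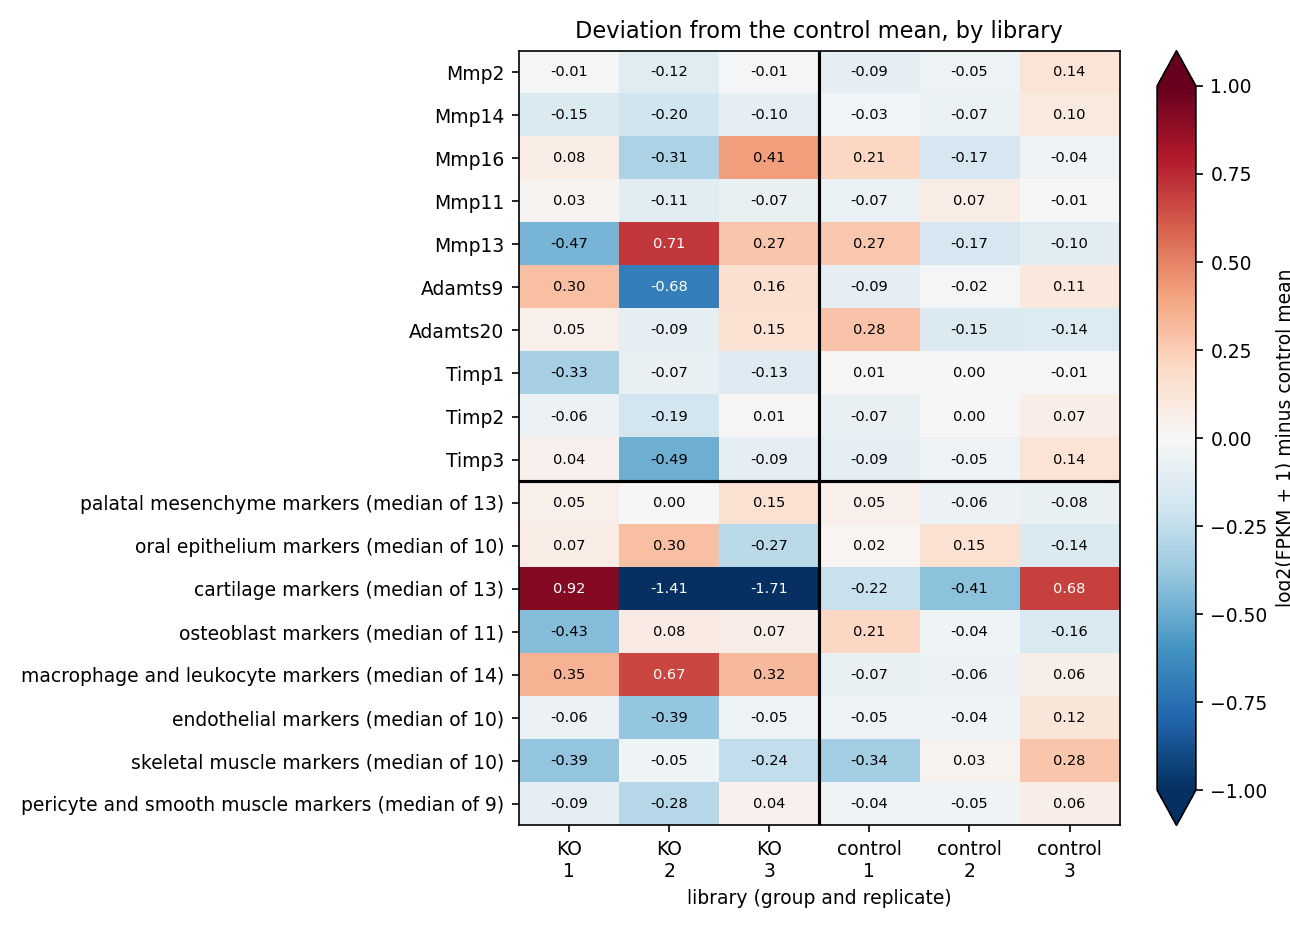
Each cell is log2(FPKM + 1) in 1 library minus the control mean, for the 10 genes (above the line) and as the median over each marker list (below it), with KO libraries left of control libraries and colours capped at 1. KO replicate 2 is low in Adamts9 (-0.68), Timp3 (-0.49) and endothelial markers (-0.39) and high in Mmp13 (0.71), while cartilage markers differ widely within both groups.

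Genes with the most similar profile were sought among 12817 other tested protein-coding genes for Mmp13, which varied most, and Timp1, which had the smallest unadjusted p. For Mmp13 they were Gm6665, Tmem28, Ighmbp2, Pcyt1a and Efcab11 (r between 0.98 and 0.99), among 78 genes with r above 0.9. For Timp1 they were Zc3h4, Mtg2, Cenpn, Chn2 and Cep41 (r between 0.98 and 1.00), among 152 such genes. With 6 libraries many genes reach such values, and the likeness is a description of these libraries.

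The rest of the matrix protease system was then read from the same fit. In 8 lists with 87 genes (other MMPs, other ADAMTS proteases, ADAMTS-like proteins, catalytic ADAMs, other inhibitors, activators and cofactors, procollagen proteinases, and cysteine and serine proteases of matrix), 63 genes were tested and 0 were called in either direction, beside 0.333% of all tested genes. At an unadjusted p under 0.05 there were 5, beside 4.01% of all tested genes, and the median log2 fold change was -0.03. KO and control values did not overlap for 7 of the 63, 2 higher and 5 lower in KO, beside 3.27% higher and 5.79% lower of all tested genes. Of 18 other MMPs, 7 were listed at 0 in all libraries and 5 were tested. Mmp9, the gelatinase of osteoclasts and leukocytes, was the most abundant of them at 16.9, 14.2 and 24.2 FPKM in KO libraries and 23.4, 24.9 and 16.5 FPKM in control libraries. Mmp28, or epilysin, had 2.12, 1.60 and 1.94 FPKM in KO libraries and 2.45, 2.65 and 3.35 FPKM in control libraries. Its groups did not overlap, and it did not pass (log2 fold change -0.40 ± 0.13 SE; limma, adjusted p = 0.97). Mmp15 stood at 10.8 ± 1.09 FPKM in KO and 11.8 ± 0.763 FPKM in control libraries (SD, n = 3 each), and Mmp17 at 0.938 ± 0.0329 FPKM in KO and 1.13 ± 0.0924 FPKM in control libraries, without overlap.

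Of 17 other ADAMTS proteases, 16 were tested, with a median log2 fold change of -0.02 and a range from -0.17 to 0.16. Adamts10, which acts in fibrillin microfibrils, was the most abundant at 58.5 ± 6.93 FPKM in KO and 61.4 ± 4.39 FPKM in control libraries, well above Adamts9 and Adamts20. Adamts2, a procollagen N-proteinase, averaged 15.2 ± 2.17 FPKM in KO and 15.4 ± 0.471 FPKM in control libraries. Adamts1 had the smallest unadjusted p of this list, with 13.8 ± 2.23 FPKM in KO and 12.1 ± 0.593 FPKM in control libraries. Among ADAMTS-like proteins, which lack the protease domain, Adamtsl2 had 0.910, 0.799 and 0.939 FPKM in KO libraries and 1.16, 1.38 and 1.84 FPKM in control libraries, without overlap (limma, adjusted p = 1.0). The 9 catalytic ADAMs lay between -0.15 and 0.17 in log2 fold change. Adam10, the main sheddase of Notch, averaged 24.0 ± 1.96 FPKM in KO and 22.6 ± 1.44 FPKM in control libraries.

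The testicans are proteoglycans known to act on pro-MMP2 activation by MT-MMPs, and 3 of them were tested among the other inhibitors. Spock1 had 4.30, 4.79 and 5.81 FPKM in KO libraries and 6.94, 7.44 and 6.86 FPKM in control libraries, and Spock2 had 9.91, 10.4 and 8.70 FPKM in KO and 12.7, 13.1 and 11.4 FPKM in control libraries. Groups did not overlap for either gene, both were lower in KO, and neither passed. The log2 fold change of Spock1 was -0.44 ± 0.11 (SE; limma, adjusted p = 0.434) and that of Spock2 -0.33 ± 0.09 (SE; limma, adjusted p = 0.691). Spock3 lay the other way, with 2.66, 1.21 and 2.40 FPKM in KO libraries and 1.67, 1.70 and 1.84 FPKM in control libraries, and overlapping groups. Its log2 fold change was 0.14 ± 0.19 (SE), which did not pass (limma, adjusted p = 1.0). Reck, a membrane-anchored MMP inhibitor, averaged 16.1 ± 3.83 FPKM in KO and 15.5 ± 1.46 FPKM in control libraries, and like Timp3 and Adamts9 it was lowest in KO replicate 2, at 11.7 FPKM. Of the activators, Furin averaged 34.1 ± 2.35 FPKM in KO and 36.4 ± 1.08 FPKM in control libraries. Plau, the urokinase that generates plasmin, had 5.69, 5.78 and 5.76 FPKM in KO libraries and 4.47, 4.90 and 5.53 FPKM in control libraries, without overlap (limma, adjusted p = 1.0). The procollagen C-proteinase Bmp1 averaged 86.9 ± 6.79 FPKM in KO and 92.8 ± 5.47 FPKM in control libraries.

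Ctss was the 1 gene of the 63 whose difference passed 1.5 times on the log2(FPKM + 1) scale, which shrinks differences of low genes such as Adamtsl2, whose KO mean FPKM was 60.5% of the control mean. Ctss encodes cathepsin S, a lysosomal protease of macrophages and other antigen-presenting cells, and had 8.11, 10.6 and 7.47 FPKM in KO libraries and 5.29, 3.95 and 5.41 FPKM in control libraries (log2 fold change 0.72 ± 0.15 SE; limma, adjusted p = 0.237). The macrophage and leukocyte markers were likewise higher in KO, at 122.9, 149.6 and 109.0 FPKM summed in KO libraries and 77.2, 83.6 and 95.4 FPKM in control libraries. The order among KO libraries was the same as for Ctss, and that among control libraries was not. KO and control values did not overlap for 11 of the 14 markers, where 9.06% of all tested genes did not, 0 of the 14 were at 0 throughout, and their part in the level of Ctss was not tested. Ctsk, the cathepsin of osteoclasts, averaged 25 ± 3.87 FPKM in KO and 29.3 ± 1.06 FPKM in control libraries, and Ctsb 58.7 ± 4.25 FPKM in KO and 51.3 ± 4.64 FPKM in control libraries.

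Matrix substrates of these proteases did not pass either, with 0 of 24 tested genes called and a median log2 fold change of 0.02. Col1a1 averaged 808.1 ± 151.1 FPKM in KO and 859.2 ± 144.1 FPKM in control libraries, and Col1a2 599.0 ± 99.5 FPKM in KO and 607.7 ± 84.6 FPKM in control libraries. Folds beyond 1.5 times on the log2(FPKM + 1) scale, which did not pass, were measured for 2 genes, Acan (log2 fold change -0.77) and Col2a1 (-0.75), cartilage genes that were named after their values were seen. Col2a1 had 315.5, 49.1 and 48.4 FPKM in KO libraries and 126.1, 111.0 and 258.3 FPKM in control libraries, with wide overlap between the groups. Both are ordered among libraries much as the cartilage markers given above, a list that also holds them, and the part of cartilage in their levels was not tested.

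**Figure D4:**
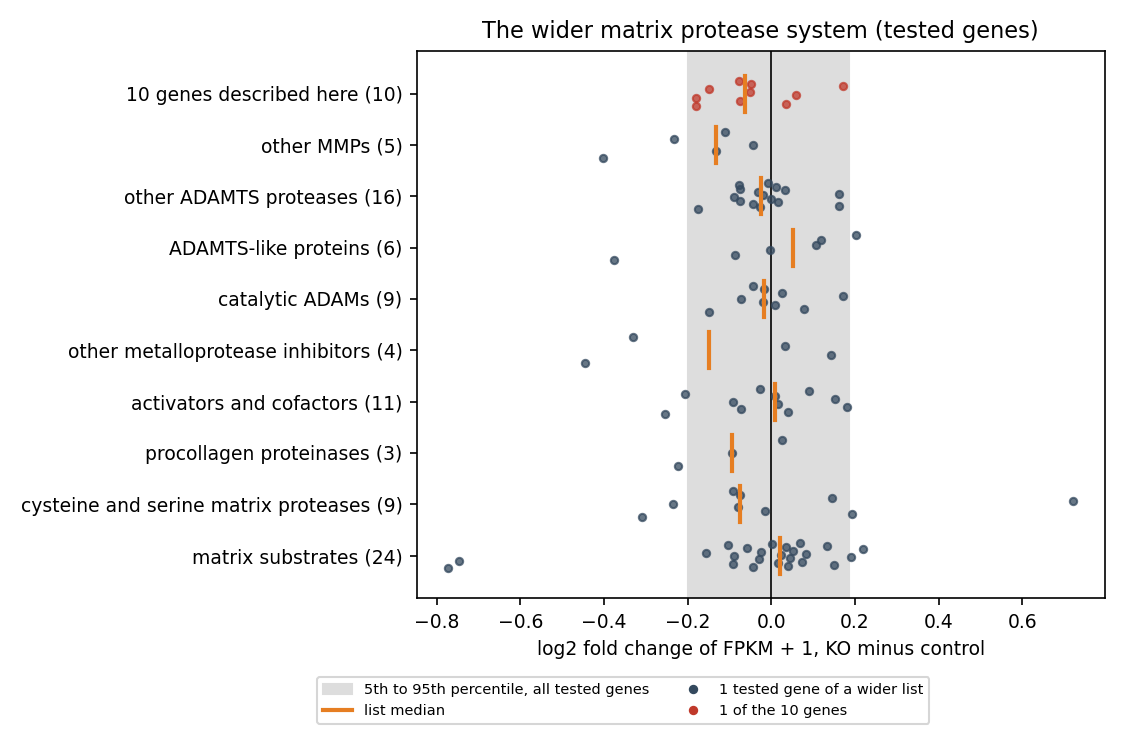
Log2 fold change of FPKM + 1, KO minus control, of each tested gene (points) by list, with the list median (orange) and the range that holds the 5th to 95th percentile of all tested genes (grey). The 10 genes lie between -0.18 and 0.17, and the points farthest from 0 are Acan and Col2a1 among the substrates and Ctss among the cysteine and serine proteases.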

How the data were processed

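Total RNA of palatal shelves at E14.5 was made into libraries, per the labels' protocols. FPKM values, in which the authors scaled for gene length and library size, were deposited for 55631 Ensembl gene IDs in 6 libraries. The unit comes from the table's name. The submitters' processing notes name mm10 and DESeq2 version 1.5.2. No source used here gives the aligner, counter, annotation or strand setting. The number of reads is unknown, so no counting interval is given.

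Columns were assigned by library name and groups by title. Symbols and coordinates came from GENCODE M21 (GRCm38), which matched 50824 IDs, and promoters from RefSeq (GRCm38.p6). In R 4.3.3, limma (version 3.58.1) was fitted to log2(FPKM + 1), with genotype as the only term of lmFit and a trend in eBayes. The fit held the 14714 genes whose mean reached 1 FPKM. All 10 genes passed this filter. Tests were two-sided, with Benjamini-Hochberg adjustment and a threshold of 0.05. Fold changes on this scale understate changes of low genes. The script was tested on simulated data with planted changes larger than those measured for the 10 genes, so it does not show that changes of their size would be found.

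The 10 genes and the gene lists were chosen with earlier results of these data known. Named genes of the wider lists were up to 3 with the smallest p and up to 2 with the highest mean per list, of which the text gives a selection. Alternatives were a pseudocount of 0.1, no filter, a filter at a mean of 5 FPKM, quantile normalization, median-of-ratios scaling, TPM, eBayes without a trend, weights per library, a block for the replicate number, a covariate for embryo sex, and leaving out each library.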

Additional observations from a re-analysis of the deposited data

How the results depend on the processing

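None of the 10 genes, and none of the 9 wider lists' genes, passed under any alternative that was run. The median log2 fold change of all tested genes was -0.00716 with quantile normalization, -0.00292 with median-of-ratios scaling and 0.00789 after rescaling to TPM. Mmp11, Mmp14, Timp1, Timp2 and Timp3 stayed below 0 in all 16 alternatives, and with 1 library left out ranged from -0.0922 to -0.016 for Mmp11, -0.182 to -0.101 for Mmp14, -0.231 to -0.101 for Timp1, -0.122 to -0.0213 for Timp2 and -0.292 to -0.0261 for Timp3. The lowest adjusted p was 0.265 for Timp1 and 0.367 for Mmp14, both with library weights (limma). With 1 library left out, the log2 fold change of Mmp2 ranged from -0.0923 to 0.0203 and was above 0 without control replicate 3. Mmp13 was -0.0724 with library weights and -0.0973 with embryo sex as a covariate, and ranged from -0.0973 to 0.491 with 1 library left out. Mmp16 ranged from -0.118 to 0.246, below 0 without KO replicate 3 or control replicate 2. Adamts9 was 0.151 with library weights and 0.231 with embryo sex as a covariate, and ranged from -0.262 to 0.231. Adamts20 ranged from -0.038 to 0.178, below 0 without KO replicate 3, control replicate 2 or control replicate 3. The sex covariate is by construction the value without KO replicate 2. With the filter at 5 FPKM, Mmp13 and Adamts20 were not tested.

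Over all genes 48 were called higher in KO and 1 lower. The filter at 5 FPKM, by which fewer genes were tested, gave 24 higher and 0 lower. Without a filter there were 67 higher and 2 lower, with library weights 66 higher, and with embryo sex as a covariate 48 higher and 2 lower. With 1 library left out there were between 32 (without control replicate 3) and 48 higher, and between 1 and 2 lower, the 2 being reached without KO replicate 1 and without KO replicate 2. The replicate number as a block gave 41 higher and 1 lower. The numbers were not taken to pair the libraries, as deviations of same-numbered libraries correlated over genes at 0.0192, 0.305 and -0.241. The cause of these differences was not tested. Depth is unknown, so no detection limit could be set for low genes such as Mmp13.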
